A study of Mus musculus with 16 samples.

Results

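Cytoplasmic ribosomal protein (RP) genes were followed in the expression table of 16 mouse pluripotent stem cell lines. The members were all rows whose gene name begins with Rpl, Rps or Rplp and a number, without the S6 kinases named Rps6k and without pseudogenes marked -ps. The rule took 85 of the 22552 rows, of which 49 encode large (60S) subunit chains, 3 encode the acidic stalk and 33 carry small (40S) subunit names. Rps19bp1, a binding partner of Rps19 that is no part of the ribosome, was among the 33 by its name alone. The filter used for testing, a mean of at least 0.5 FPKM (fragments per kilobase of transcript, scaled to the mapped fragments of the library) over the lines, kept 84 members and 13185 rows in all, and the member it removed was Rpl3l.

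All lines went back to adipocyte progenitor cells (APCs) of strain 129-M2rtTA, taken from mice that had themselves developed wholly from an iPSC line, 37iPSC, so that each line carried the Rosa26-M2rtTA transgene and the same inducible reprogramming insertions. AN lines were ntESCs, that is, embryonic stem cells from embryos cloned by moving an APC nucleus into an enucleated oocyte, and AI lines were iPSCs induced from APCs with doxycycline. The lines were graded F or P by tetraploid complementation, which asks whether a line can form a whole animal. The study ran this assay on the AN lines, AI3, AI7, AI9 and AI10. It took the grades of GS4, GS9 and GS32 as previously identified. Accordingly, AN1, AN9, AN15 and AN20 were fully reprogrammed ntESCs (AN F) and AN2, AN3, AN5, AN6 and AN7 partially reprogrammed ones (AN P), while GS32, AI3, AI7 and AI10 were fully (AI F) and GS4, GS9 and AI9 partially (AI P) reprogrammed iPSCs. GS4, GS9 and GS32 were APC-iPSC lines known before the study, and the labels give GS4 passage 17 and GS32 passage 13, against passages 5 to 7 for the rest. Lines were kept in medium with serum and LIF, and ntESCs were first grown on a feeder layer of embryonic fibroblasts. Each line is a single clone with 1 library, so the line is the replicate, and the p-values measure the spread between lines. The F and P calls are those given in the study, for GS4, GS9 and GS32 from earlier work, and were joined to the labels by line name. The source label of GS9 and of GS32 reads GS4, so their titles were used.

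Ribosomes consist of ribosomal RNA and RP chains, which are present in equal numbers in each particle apart from those of the stalk. Cells hold the mRNAs of the chains at similar, very high levels, and surplus chains are degraded. Nearly all RP mRNAs begin with a pyrimidine tract, the 5′ TOP motif, through which mTOR and LARP1 adjust their translation together. Pluripotent cells divide fast and make ribosomes at a high rate. RP genes have also left many processed pseudogenes in the mouse genome, intronless copies made from their mRNAs.

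These copies bear on how RP genes can be measured with reads of 50 bases. Of the 84 members found in the mm9 annotation (GENCODE M1, where Rpl41 was not matched), the median member had 88.6% of its 50-base coding stretches elsewhere in the mm9 genome or in another gene's transcript. For 28 members every stretch occurred elsewhere, for 67 more than 50% did, and for 4 none did. Rows of the table other than the gene itself held at least 10% of the coding stretches of 17 members, in 23 rows. In 6 pairs the copy was listed above its gene, and 3 of the 6 genes, Rps27, Rpl26 and Rpl34, are also the chains that departed most from the rest. Copies are counted here only for coding sequence, and how the reads were shared out between gene and copy is not given in the sources used here.

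Rps27, a zinc-binding chain of the 40S subunit, is the clearest pair and its coding sequence is shown because no base separates it from the copy. It lies on the minus strand at chr3:90016593-90017573 of mm9 in 4 exons, and the 255 coding bases of Gm9846, an intronless gene on the minus strand at chr9:114891571-114891825, are the same from start codon to stop codon, both in capitals.
Rps27: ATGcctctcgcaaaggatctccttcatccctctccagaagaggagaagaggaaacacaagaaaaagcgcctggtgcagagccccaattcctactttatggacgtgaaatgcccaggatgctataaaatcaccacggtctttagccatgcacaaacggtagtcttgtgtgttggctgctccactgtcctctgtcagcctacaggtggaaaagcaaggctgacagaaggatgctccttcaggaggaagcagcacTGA

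For Rpl34 and Rpl26, chains of the 60S subunit, the copies differ from the coding sequence at 2 bases of 354 and 2 of 438. The substitutions, counted from the A of the start codon with the gene's base first, were T132C and C318G in Rpl34-ps1 and C177T and T288C in Gm15772. Rpl34 lies on the minus strand at chr3:130429749-130433316 and Rpl26 on the plus strand at chr11:68715085-68720491. A read that covers either difference can tell gene from copy. Windows of 60 coding bases around the first difference, in capitals, show that base and its surroundings. Those of the copies lie on the plus strand of mm9 at chr6:71074705-71074764 and chr5:3236577-3236636.
Rpl34: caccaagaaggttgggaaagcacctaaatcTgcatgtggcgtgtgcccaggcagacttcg
Rpl34-ps1: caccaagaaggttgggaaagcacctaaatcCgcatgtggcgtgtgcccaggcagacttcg
Rpl26: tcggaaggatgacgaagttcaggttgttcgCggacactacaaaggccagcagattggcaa
Gm15772: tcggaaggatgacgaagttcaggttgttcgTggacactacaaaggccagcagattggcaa

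RP genes were among the most abundant rows of the table. Of the 85 members, 57 had a mean above 1000 FPKM over the lines, 19 had a mean between 100 and 1000, and 9 had at most 100. The median member stood at 1308 FPKM, against 8.98 FPKM for the median row tested, and 44 members were among the 100 highest rows by mean FPKM. Rpl41, the shortest chain, led with 7784 FPKM, followed by Rps18 at 3417, Rpl11 at 3116, Rps2 at 3092 and Rpl35 at 2871. FPKM divides by transcript length, but these levels also depend on how reads were shared out between a chain and its copies. Levels of chains with copies can therefore not be compared directly, and the copies of Rpl41 were not counted. Among the lowest were Rpl3l at 0.456, Rpl39l at 9.88, Rpl10l at 15.1 and Rpl26 at 32.1 FPKM. The copy of Rpl26, Gm15772, was listed at 660 FPKM on average.

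**Figure D1:**
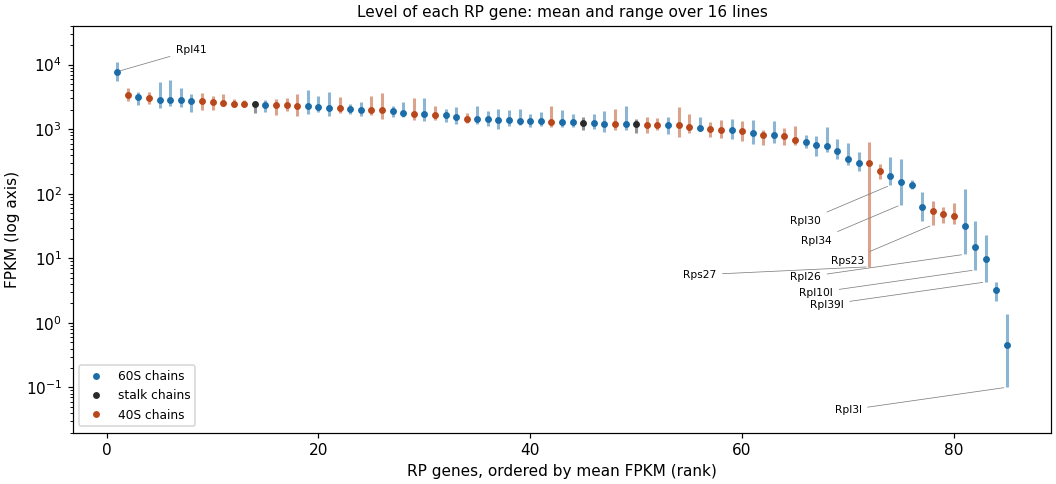
Level of each of the 85 RP genes (vertical axis, FPKM, log scale) against its rank by mean FPKM (horizontal axis). Points are means over the 16 lines, bars run from the lowest to the highest line, and colors give the 60S, stalk and 40S names; 57 members lie above 1000 FPKM, and the bar of Rps27 is the longest.

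The low end of the family held paralogs with a known restricted expression, such as Rpl3l, the heart and skeletal muscle form of Rpl3, and Rpl10l and Rpl39l, forms of Rpl10 and Rpl39 known from the testis. Rpl22l1, Rpl7l1 and Rps4y2, other paralogs, and Rps19bp1 were also under 300 FPKM, and so were several chains of the common ribosome. Rps23, with 33.1 to 77.1 FPKM, has the same 432 coding bases as Gm15450, which was listed at 1261 to 2605. Rpl30, with 136 to 370.2 FPKM, differs from Gm12191 by the single substitution G96A, and Gm12191 was listed at 2295 to 5665. Of the 15 members under 300 FPKM, 6 had such a copy above them.

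The share of the RP genes in the summed FPKM of a line varied little. It ran from 14.7% in AN20 to 17.5% in AI3, with a mean of 16.5% ± 0.80 (SD, n = 16). Among ntESCs it was 16.3%, 15.4%, 17.5% and 14.7% in AN1, AN9, AN15 and AN20, and 16.6%, 16.98%, 16.6%, 17.2% and 15.7% in AN2, AN3, AN5, AN6 and AN7. Among iPSCs it was 17.5%, 17.1%, 16.4% and 15.7% in AI3, AI7, AI10 and GS32, and 16.4%, 16.2% and 17.3% in AI9, GS4 and GS9. The ranges of all 4 groups overlapped. AN F lines held 15.96% ± 1.19 (SD, n = 4) and AN P lines 16.6% ± 0.57 (n = 5), next to 16.7% ± 0.82 (n = 4) for AI F lines and 16.6% ± 0.62 (n = 3) for AI P lines. The differences between group means in the 4 comparisons were -0.63, 0.04, -0.71 and -0.03 percentage points for AN F vs AN P, AI F vs AI P, AN F vs AI F and AN P vs AI P, each within 1 pooled SD of the lines. As a score over chosen members the share was given no test.

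The lowest shares, in AN20 at 14.7% and AN9 at 15.4%, went with the largest share of small RNA genes (microRNAs, snoRNAs, snRNAs and the like), 27.9% and 28.1% of summed FPKM, against 15.8% to 23.3% in the other lines. With small RNA genes out of the denominator, the RP share was 20.4% in AN20 and 21.4% in AN9, inside the range of the other lines. On that base it ran from 18.96% in GS32 to 22.05% in GS9. The means were then 20.8% ± 0.46 for AN F lines, 20.9% ± 0.53 for AN P lines, 20.1% ± 0.87 for AI F lines and 21.2% ± 0.84 for AI P lines. The ends of this range were also the ends for markers of fibroblasts or feeder cells. The mean log2(FPKM + 1) of 14 such markers was highest in GS32, at 6.83, and lowest in GS9, at 4.84. Their part in the RP share was not tested.

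**Figure D2:**
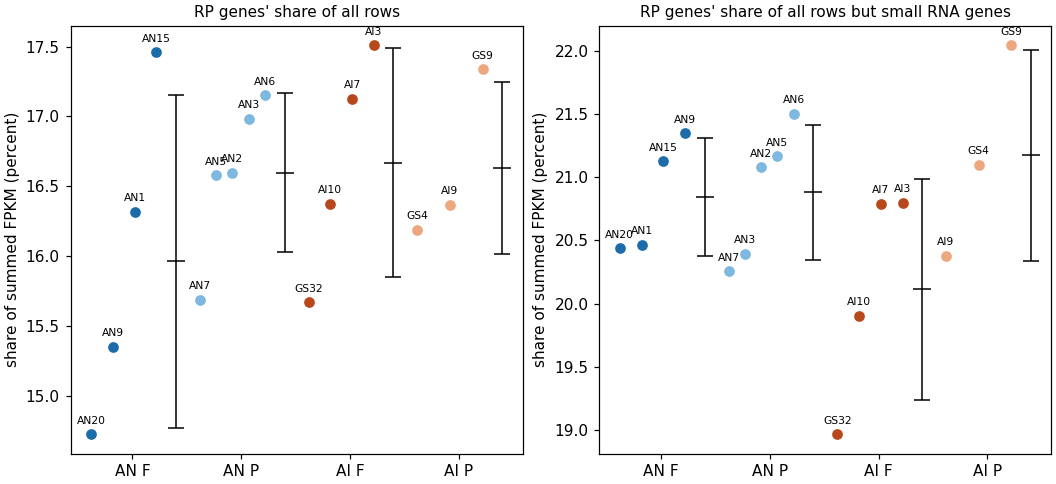
Share of summed FPKM taken by the 85 RP genes in each line (vertical axis, percent, axis not from 0), over all rows (left) and with small RNA genes left out of the sum (right), by group. Points are lines and bars beside them give the group mean ± SD; AN9 and AN20 lie at 15.4% and 14.7% on the left and at 21.4% and 20.4% on the right.

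All 11 pluripotent markers were expressed in the table, with Pou5f1 at 829 and Nanog at 91.2 FPKM on average, and no fibroblast marker was at 0. The most abundant fibroblast markers were Tagln at 483 and Sparc at 474 FPKM, whereas 7 adipocyte progenitor markers were listed at means of 0.150 FPKM (Pparg) to 13.9 FPKM (Ly6a). Summed FPKM per line ran from 661973 in AI3 to 963434 in GS9, and since no read counts enter the files used here the depth is unknown. AN9, AN20 and GS9 stood apart in these sums or in small RNA, and results are given below without them. Bulk libraries cannot separate fewer cells of a type from less RNA per cell.

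The balance between subunits also varied little. Names of 60S and stalk chains made up 58.6% to 60.6% of the RP sum, with GS9 highest at 60.6%. Rpl41 alone took 6.18% to 6.77% of the RP sum in 14 lines but 4.92% in AN9 and 4.75% in AN20. In FPKM this was 7897, 6423, 7978 and 5531 in AN1, AN9, AN15 and AN20. The AN P lines had 8569, 7262, 8166, 8687 and 7682 FPKM, the AI F lines 7463, 8174, 7241 and 6611 and the AI P lines 7429, 8498 and 10937.

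Chains followed the level of the family in a line to different degrees. Over the 16 lines, the median Pearson correlation between a member of at least 5 FPKM and the median log2(FPKM + 1) of these 83 members in the same line was 0.68, 36 members exceeded 0.8, and 3 were below 0. Of the 83 members, 52 exceeded 0.5. Each member enters the median it is compared with, the points share libraries and their scaling, and the correlations are a description. This median of the family was highest in GS9, at 10.9 against at most 10.6 in the other lines, and no correlation was computed without GS9. Around this RP median, the SD of a member over the lines had a median of 0.17 on the log2 scale. Among 8343 other genes of at least 5 FPKM, those that tracked the RP median most closely were Ppia, the abundant cyclophilin A (r = 0.96), Sarnp (0.96), Tyms, which makes thymidylate (0.95), Atp5f1, an ATP synthase subunit (0.95), and Plrg1, a splicing factor (0.95).

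The stalk proteins Rplp0, Rplp1 and Rplp2 recruit the elongation factors to the ribosome. Rplp1 was listed at 2418, Rplp0 at 1249.5 and Rplp2 at 1188 FPKM on average. Rplp0, the core of the stalk, had 1263, 1548, 1310.4 and 1469 FPKM in AN1, AN9, AN15 and AN20, above the 1186, 1188, 1139 and 975 in AI3, AI7, AI10 and GS32. It had 1256, 1195, 1297, 1300.4 and 1336 in AN P and 1018, 1222 and 1291 in AI P, where the ranges met. Rpl5 and Rpl11, which carry the 5S ribosomal RNA and bind Mdm2 when ribosome assembly is disturbed, stood at 1205 and 3116 FPKM. Rpl5 was 984 to 1317 FPKM in all lines but GS9, where it was 2306. Rpl11 was 2344 to 3737 FPKM over the lines, with AN20 lowest.

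All but 1 of the paralog pairs named here kept their order in every line. Rpl3 was listed at 2027 and Rpl3l at 0.456 FPKM, Rpl7 at 1386 and Rpl7l1 at 136, and Rpl10 at 1293 and Rpl10l at 15.1. Rpl39 was at 1341 and Rpl39l at 9.88, Rpl36a at 2262 and Rpl36al at 1167, Rpl22 at 341 and Rpl22l1 at 62.2, and Rps4x at 1667 and Rps4y2 at 222 FPKM. The exception was Rps27 and Rps27l, the p53-induced paralog. Rps27l was listed at 570.2 to 1129 FPKM and was above Rps27 in all lines but AN1 and AN15, where it had 571 against 601 and 605 against 629 FPKM. Rps27 shares its whole coding sequence with Gm9846, and the sum of both rows was 916 to 1845 FPKM. The listed order of Rps27 and Rps27l therefore depends on how reads were shared out between Rps27 and Gm9846, which is not given.

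Among the paralogs, Rpl10l, Rpl39l and Rpl3l were highest in the same lines. Rpl10l was listed at 37.7 FPKM in GS4 and 28.5 in AN7, and at 6.61 to 22.2 in the others. Rpl39l was at 22.9 FPKM in GS4 and 18.0 in AN7, and at 4.31 to 14.7 in the others. Rpl3l was at 1.36 FPKM in GS4, 0.926 in AN7 and at most 0.530 elsewhere. Both GS4 and AN7 are P lines, from different groups, and AN6, also a P line, had the lowest value of all 3 genes. Of their common counterparts, Rpl3 was also highest in GS4, while Rpl10 and Rpl39 were not. GS4 had 1227, 1440.3 and 2422 FPKM of Rpl10, Rpl39 and Rpl3, and AN7 had 1208, 1212 and 2101.

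The 6 members that departed most from the RP median over the lines were Rps27, Rpl26, Rpl34, Rpl10l, Rpl39l and Rpl22l1, with SDs of 1.99, 0.91, 0.81, 0.63, 0.59 and 0.42 on the log2 scale. Rps27 was listed at 601, 68.4, 629 and 116 FPKM in AN1, AN9, AN15 and AN20. It was at 319, 480.2, 503, 149 and 149 in AN2, AN3, AN5, AN6 and AN7. In AI3, AI7, AI10 and GS32 it was at 8.71, 7.40, 481 and 251, and in AI9, GS4 and GS9 at 483, 337 and 136. AI3 and AI7 were lowest of all, and AI10 of the same group was among the highest, so the ranges of the groups overlapped.

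Gm9846, with the identical coding sequence, was higher in the AN F and AI F lines with low Rps27 than in those with high Rps27, and the P lines did not all follow this order. It was listed at 776, 1777, 639 and 1505 FPKM in AN1, AN9, AN15 and AN20 and at 1559, 1127, 584 and 755 in AI3, AI7, AI10 and GS32. In AN2, AN3, AN5, AN6 and AN7 it was at 1206, 694, 923, 1114 and 1101, and in AI9, GS4 and GS9 at 789.8, 1208 and 779.6. AN2 and GS4 had the highest Gm9846 of their groups at middling Rps27, and GS9 was the lowest of AI P for both. Rps27 took 0.56% to 49.6% of the sum of both rows, and the highest line held 85.1 times the level of the lowest, whereas the sum ran from 916 to 1845 FPKM, a ratio of 2.02. Rpl26, listed at 21.5, 119, 26.3 and 97.1 FPKM in AN1, AN9, AN15 and AN20 and at 11.5 to 33.1 in the other groups, was highest in AN9 and AN20. Its copy Gm15772 was highest in the same lines, at 1077 and 1032 FPKM. Rpl34 had values above 250 FPKM in AN9, AN20, AI7, AI10 and GS9 and at most 140.2 in the other lines, while Rpl34-ps1 was listed at 984 to 1714 FPKM and the sum of both at 1124 to 2053. Rpl22l1 was at 108 and 101 FPKM in AN9 and AN20 and at 37.3 to 67.9 elsewhere.

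**Figure D3:**
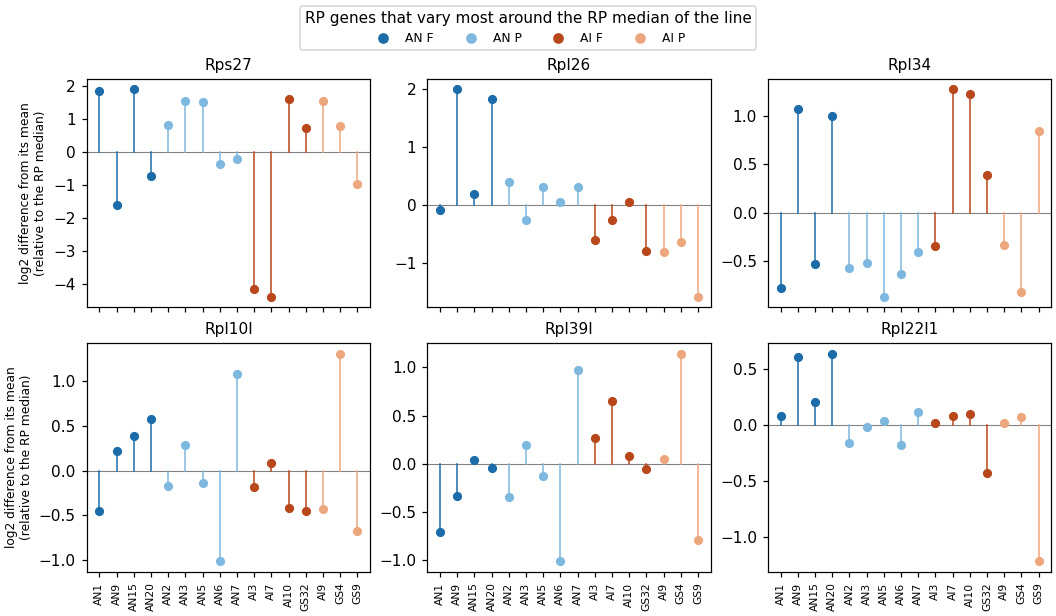
For the 6 RP genes with the largest spread around the RP median, the log2 difference in each line from the gene's own mean over the lines, after subtracting the RP median of the line (vertical axis, log2, scaled per panel). Each stem is a line, colored by group; Rps27 is lowest in AI3 and AI7, Rpl26 highest in AN9 and AN20, and Rpl10l and Rpl39l highest in GS4 and AN7.

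**Figure D4:**
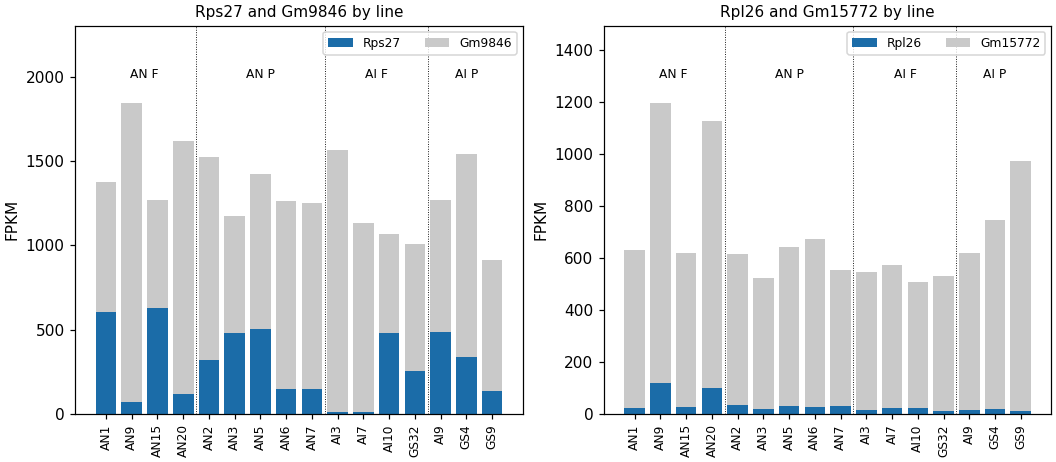
FPKM of Rps27 and Gm9846 (left) and of Rpl26 and Gm15772 (right) stacked for each line, with dotted lines between groups. The Rps27 part of the bar varies from 0.56% to 49.6% while the whole bar varies 2.02-fold over the lines.

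The first question of the design was whether fully and partially reprogrammed lines of 1 method differ. In AN F vs AN P, no RP gene reached an adjusted p below 0.05 (limma, Benjamini-Hochberg over 13185 genes), and 0% of all genes tested were called. At an unadjusted p below 0.05, 5 of 84 RP genes were counted, 1 higher and 4 lower in AN F, against 6.01% of all genes, with 3.02% higher and 2.99% lower. The median log2 difference of the 84 was 0.03, beside -0.01 for all genes tested, with 48 members higher and 36 lower. It was 0.00029 without AN3, -0.02 without AN9, -0.05 without AN9 and AN20 together, with 16 members higher and 68 lower, and -0.0032 under quantile normalization, where 41 members were higher and 43 lower. Markers of fibroblasts or feeder cells were lower in AN F for 12 of 14 genes, with a median of -0.27, and their part was not tested.

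The smallest p belonged to Rpl30, a 60S chain whose yeast counterpart represses splicing of its own transcript. It was listed at 159, 163, 162 and 137 FPKM in AN F and 215, 183, 180.4, 235 and 218 in AN P. The groups did not overlap, as for 3 of 84 RP genes, the others being Rpl36a and Rpl37a, and 1.3% of all genes. The log2 difference was -0.41 ± 0.10 (SE), and with Gm12191 added to Rpl30 it was -0.19. Among members lower in AN F, next came Rps16 at -0.28 ± 0.11 and Rpl13a, known from its part in silencing inflammatory transcripts, at -0.32 ± 0.13. In the other direction, Rpl22l1, with the second smallest p of all members, stood at 0.48 ± 0.18, Rpl29 at 0.21 ± 0.10 and Rps21 at 0.21 ± 0.10. The adjusted p was 0.64 for each of these genes. Without AN9 and AN20 together, the log2 difference was 0.10 for Rpl22l1 and 0.03 for Rpl29.

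In AI F vs AI P, again no RP gene and 0% of all genes were called by limma at an adjusted p below 0.05, and 3 of 84 RP genes had an unadjusted p below 0.05, against 7.77% of all genes. Here 76 members were lower and 8 higher in AI F, and the median log2 difference was -0.24, beside -0.04 for all genes tested. The median was -0.10 without GS9 and -0.40 without AI9. With small RNA genes left out it was -0.08, while that of all genes was 0.11, and 60 of the 85 members then tested were lower. Under quantile normalization it was 0.01, and 45 members were higher. Markers of fibroblasts or feeder cells moved with this contrast: all 14 were higher in AI F, with a median log2 difference of 0.90, and their mean level was 5.66 to 6.83 in AI F and 4.84 to 6.38 in AI P on the log2(FPKM + 1) scale. Their part in the lower RP levels was not tested.

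Rpl29, Rpl22 and Rpl23a, chains of the 60S subunit, had the smallest p. Rpl23a, at the exit of the peptide tunnel, was listed at 2484, 2742, 2203 and 2635 FPKM in AI F and 3019.9, 3417 and 4289 in AI P. Rpl22, which also binds RNAs outside the ribosome, was at 277, 326, 281 and 352 in AI F against 353, 400.5 and 605 in AI P. Rpl29 was at 536, 615, 517 and 556 in AI F against 629.6, 766 and 819 in AI P. The AI P lines lay above all AI F lines for these genes and for Rpl17, 4 of 84, against 3.19% of all genes in that direction and 4.88% in either. The log2 differences were -0.40 ± 0.14, -0.52 ± 0.20 and -0.50 ± 0.21 for Rpl29, Rpl22 and Rpl23a, each with an adjusted p of 0.52. The members with the smallest p among those higher in AI F were Rpl26 at 0.31 ± 0.24, Rpl34 at 0.44 ± 0.60 and Rpl27 at 0.11 ± 0.20. With the copies added, Rpl26 turned to -0.49 and Rpl34 to -0.16, and without AI9 Rpl27 turned to -0.025.

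Whether the F against P difference was itself different between AI and AN lines was tested by the interaction over all 16 lines. No RP gene was called, against 0% of all genes, and 13 of 84 had an unadjusted p below 0.05, all with the AI difference lower, beside 8.34% of all genes in that direction and 16.6% in either. The median log2 difference of the 84 was -0.28, beside -0.04 for all genes tested, with 70 members lower. Fibroblast or feeder markers went the other way, 13 of 14 higher with a median of 1.23, and their part was not tested. Rpl29 gave -0.61 ± 0.16, Rpl23a -0.67 ± 0.18 and Rpl22 -0.57 ± 0.20, each with an adjusted p of 0.29. Without AI9, which had the lowest values of these genes in AI P, the adjusted p was 0.034 for Rpl29 and Rpl23a and 0.043 for Rpl22, and over all alternatives it ran from 0.034 to 0.96 for Rpl29. These 3 were 3.57% of the 84 RP genes, below the 4.94% of all genes (651 of 13185) called in the same fit. The other lines left out in turn gave no call.

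The second question was whether the method of reprogramming left a difference between lines of equal grade. In AN F vs AI F, no RP gene was called by limma at an adjusted p below 0.05, against 0.00758% of all genes, which was 1 small RNA gene. At an unadjusted p below 0.05, 20 of 84 RP genes were counted and all 20 were higher in AN F, beside 5.31% of all genes in that direction and 9.44% in either. The members share their lines, and the family as a whole lay higher: the median log2 difference was 0.13, beside 0.02 for all genes tested, with 62 members higher. It was 0.08 without AN9, 0.07 without AN9 and AN20 together and 0.02 under quantile normalization, with 45 members higher. Fibroblast or feeder markers went the other way, 11 of 14 lower in AN F with a median of -0.48, and their part was not tested.

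Rps19, which is needed to mature the 40S subunit and is mutated in Diamond-Blackfan anemia, had the smallest p. It was listed at 929.7, 986, 886 and 908 FPKM in AN1, AN9, AN15 and AN20 and at 801, 729, 713 and 571 in AI3, AI7, AI10 and GS32. The log2 difference was 0.41 ± 0.11. Rps15a followed at 0.55 ± 0.17 and Rpl10a at 0.37 ± 0.13, and the adjusted p of these genes was 0.50 by limma. Without AN9 and AN20 together, the difference of Rps15a was 0.23. Its copy Gm11968 was listed at 32.7 FPKM in AN9 and 30.1 in AN20, and at 5.96 to 13.7 elsewhere. All AN F lines lay above all AI F lines for 7 members, Rps19, Rps15a, Rpl10a, Rplp0, Rpl7a, Rps10 and Rps13, beside 2.05% of all genes. Rps9, at 2524, 2288, 2594 and 1971 FPKM in AN F and 2829, 3078, 2709 and 2613 in AI F, was the only member below without overlap, beside 1.11% of all genes in that direction and 3.16% in either, with a log2 difference of -0.27 ± 0.12. Rps28 stood at -0.25 ± 0.14 and Rpl11 at -0.22 ± 0.12.

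In AN P vs AI P, no RP gene was called by limma at an adjusted p below 0.05, against 0.0152% of all genes, which were 2 small RNA genes, and 7 of 84 had an unadjusted p below 0.05, against 5.69% of all genes. The median log2 difference was -0.13, beside -0.01 for all genes, with 64 members lower in AN P, and without AI9 it was -0.29. It turned to 0.01 without GS9 and to 0.04 under quantile normalization, where 49 members were higher, and with small RNA genes left out it was -0.02, with 49 of 85 members lower and a median of all genes of 0.08. All 14 fibroblast or feeder markers were higher in AN P, with a median of 0.75, and their part was not tested. Of 11 pluripotent markers, 8 were higher in AN F than in AN P and 3 in AI F than in AI P. Between methods, 10 were higher in AN F than in AI F and 2 in AN P than in AI P. Their median log2 differences were 0.08, -0.32, 0.16 and -0.15 in the same order, and their part was not tested either. The AN P lines also enter AN F vs AN P and the AI P lines AI F vs AI P, so these comparisons share samples.

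Rpl26 had the smallest p and the largest difference. It was listed at 33.1, 18.6, 30.2, 27.4 and 29.9 FPKM in AN2, AN3, AN5, AN6 and AN7 and 12.4, 16.8 and 11.7 in AI9, GS4 and GS9, a log2 difference of 0.97 ± 0.20. Gm15772 was listed at 583, 505, 612, 645 and 522 FPKM in the same AN P lines and at 608, 731 and 961 in the AI P lines. With the copies added to Rpl26 the difference turned to -0.34. Rps19 was at 916, 829, 962, 963 and 871 FPKM in AN P and 677, 765 and 698 in AI P, without overlap, a log2 difference of 0.35 ± 0.11. Rps19 was also the only 1 of the 84 RP genes with every AN line above every AI line whatever their grade, and 0.0228% of all genes separated the lines in either direction, a pattern noticed after its values were seen. Rplp1 stood at 0.31 ± 0.13. On the other side were Rpl23a at -0.49 ± 0.15, Rpl22 at -0.50 ± 0.17 and Rpl29 at -0.31 ± 0.11, all 3 without overlap. Each of these genes had an adjusted p of 0.72. In either direction, 8 of 84 RP genes did not overlap, against 3.33% of all genes.

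**Figure D5:**
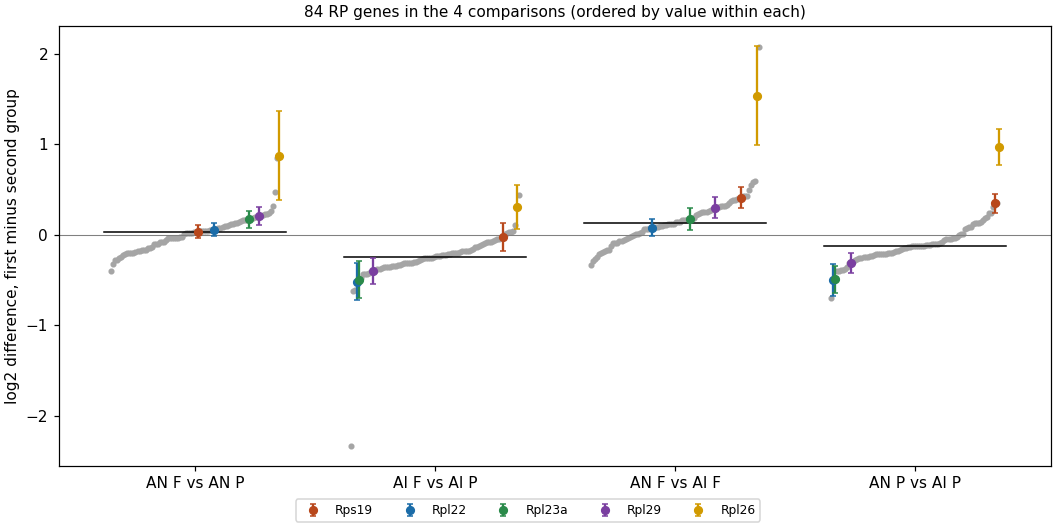
Log2 difference of each of the 84 RP genes tested (vertical axis, log2(FPKM + 1), first minus second group) in the 4 comparisons, ordered by value within each. Horizontal lines mark the median of the members, at 0.03, -0.24, 0.13 and -0.13, and colored points with bars give 5 named genes ± SE. Rps19 lies nearly at the median in AN F vs AN P and above it in the other comparisons.

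Chains could also move against the rest of the family. With the RP median of each line subtracted from all genes, again no RP gene was called by limma at an adjusted p below 0.05 in any of the 4 comparisons, and 0%, 0%, 0.00758% and 0.0152% of all genes were. The counts at an unadjusted p below 0.05 were 10, 1, 18 and 18 of 84 RP genes, against 4.16%, 9.05%, 8.27% and 5.45% of all genes, in the order AN F vs AN P, AI F vs AI P, AN F vs AI F and AN P vs AI P. Subtracting a median of RP genes shifts all other genes by the same amount, so members and other genes are not on equal terms here.

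Relative to the RP median, the members with the smallest p were Rpl30 in AN F vs AN P, at -0.46 ± 0.11, and Rpl27, a 60S chain, in AI F vs AI P, at 0.41 ± 0.15. In AN F vs AI F it was Rpl26 at 1.38 ± 0.46, which was 0.45 without AN9 and AN20, and in AN P vs AI P again Rpl26 at 1.17 ± 0.24. In that comparison Rpl27 stood at 0.56 ± 0.13, Rpl35a at 0.39 ± 0.10 and Rps19 at 0.55 ± 0.14. Without AI9, Rpl26, Rplp1 and Rps19 reached adjusted p-values of 0.039, 0.046 and 0.041 there, with ranges over all alternatives that reach 0.93 for Rpl26, and no other line left out gave a call. These 3 were again 3.57% of the 84 RP genes, below the 8.502% of all genes (1121 of 13185) called in the same fit. The Rpl26 difference turned to -0.17 with the copies added.

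Other parts of the ribosome pathway gave no call by limma at an adjusted p below 0.05 either. For 61 ribosome assembly genes the median log2 differences in the same order of comparisons were 0.03, -0.19, 0.06 and -0.12. For 16 genes of RNA polymerase I transcription the medians were 0.02, -0.21, 0.05 and -0.14, and for 15 other mRNAs that start with a 5′ TOP, such as those of elongation factors, they were 0.01, -0.21, 0.09 and -0.16. The 76 mitochondrial ribosomal protein genes, which serve a separate ribosome, had medians of -0.03, -0.25, 0.13 and -0.12, beside 0.03, -0.24, 0.13 and -0.13 for the RP genes. At an unadjusted p below 0.05, 2, 0, 1 and 0 of the 61 ribosome assembly genes were lower and 0 higher. Of the 76 mitochondrial genes, 1, 0, 12 and 1 were higher and 5, 5, 2 and 1 lower. The shares of all genes in either direction were 6.01%, 7.77%, 9.44% and 5.69%. The lists share the libraries of the RP genes. Genes of mTOR and LARP1 signaling, 14 in number, had medians of 0.02, -0.01, -0.02 and -0.04, and 8 genes of p53 and its targets had -0.01, 0.13, -0.05 and 0.05. For 8 transcription factors tied to RP genes they were 0.17, -0.07, 0.02 and -0.12. In each of the lists of 8 to 16 genes, at most 1 gene per direction had an unadjusted p below 0.05 in any of the 4 comparisons.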

How the data were processed

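RNA of the 16 lines was sequenced as single reads of 50 bases on an Illumina HiSeq, and the authors mapped it to mm9 with TopHat2 2.1.0 and computed FPKM with Cufflinks 2.2.1; the processing notes also name HTSeq. As deposited, values are in FPKM for each gene name and line, without counts, so depth is unknown. Values were tested as log2(FPKM + 1) on all genes with a mean of at least 0.5 FPKM by limma 3.58.1 (R 4.3.3) with a mean-variance trend, 2-sided, with Benjamini-Hochberg adjustment over 13185 genes. Only the compared groups entered a fit. The study used Cuffdiff, which needs the reads. A log2 difference on this scale understates changes of low genes. Differences are given ± SE. Coding sequences and their copies were read from mm9 with GENCODE M1, and a copy is a table row with at least 10% of a gene's 50-base coding stretches. Adding the FPKM of rows of different length is an approximation. The fits were tested on simulated data. Named genes were the 5 highest and 5 lowest members, the stalk, 5S and paralog genes and Rps19, the 6 with the largest spread around the RP median, and the 3 with the smallest p in each direction of each comparison. Rows called without overlap or with a copy were named as well, after their values were seen. Some genes and a gene list that these rules take are not reported here. Members and lists were chosen with earlier results of these data known. Alternatives covered the pseudocount, filters, scaling, trend, passage, derivation, thresholds, samples in the fit and leaving out lines.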

Additional observations from a re-analysis of the deposited data

Results flagged for a closer look

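Within groups of 4 or 5 lines, the gap of the highest or lowest line to its neighbor was compared with the range of the group for 19 measures in 3 groups. Of these 57 sets of values 2 passed Dixon's 95% critical value, and chance gives about 1 in 20. Rpl22 in AN9 was the highest of AN F, at 8.42 on the log2(FPKM + 1) scale, against 8.31 to 8.33 in the others. Rpl30 in AN20 was the lowest of AN F, at 7.11 against 7.32 to 7.36, and without AN20 the log2 difference of Rpl30 in AN F vs AN P was -0.35.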

How the results depend on the processing

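The count of 0 called RP genes held in all 5 fits on the log2 scale and all 4 relative to the RP median under each alternative of pseudocount, filter, scaling, trend, passage, derivation (a term that only AI F vs AI P was given), fit over all lines, added copies and removal of AN9, AN20 and GS9 together, and at an adjusted p below 0.1. At an unadjusted p below 0.05 the counts were 5, 3, 20, 7 and 13 for AN F vs AN P, AI F vs AI P, AN F vs AI F, AN P vs AI P and the interaction, and 10, 1, 18 and 18 relative to the RP median. Leaving out each line in turn gave 0 to 3 in the interaction and 0 to 3 for AN P vs AI P relative to the RP median, and 0 to 0 elsewhere. The 3 came in both cases without AI9, where 4.94% and 8.502% of all genes were called against 3.57% of the RP genes. In AI F vs AI P relative to the RP median, leaving out AI9 gave 0 RP genes, while 7.09% of all genes (935 of 13185) were called. The removal of AN9, AN20 and GS9 together leaves 2 lines in AN F and 2 in AI P. The difference in RP share between group means ran, leaving out each line, over -1.13 to -0.22 percentage points for AN F vs AN P, -0.24 to 0.39 for AI F vs AI P, -1.20 to -0.29 for AN F vs AI F and -0.25 to 0.32 for AN P vs AI P. It moved to 0.29 for AN F vs AN P without AN9, AN20 and GS9, to -1.06 for AI F vs AI P and 0.73 for AN F vs AI F without small RNA genes in the denominator, and to -1.04 for AI F vs AI P without the 20 highest other genes. Of the log2 differences of named genes, those with copies added turned to -0.49 for Rpl26 and -0.16 for Rpl34 in AI F vs AI P and to -0.34 for Rpl26 in AN P vs AI P. Relative to the RP median they turned to -0.21 for Rpl26 and 0.23 for Rps27 in AI F vs AI P and to -0.17 for Rpl26 in AN P vs AI P. On the log2 scale itself, leaving out each line, Rpl27 in AI F vs AI P ran from -0.025 without AI9 to 0.22 without GS32. The removal of 3 lines, the added copies and the share without Rps19bp1 were chosen after seeing the data. Depth is unknown, so no precision from counting can be given, and the causes of these changes were not tested.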

Other observations

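The separation of all AN lines from all AI lines by Rps19 was narrow. The gene was listed at 829 to 986 FPKM in the 9 AN lines and at 571 to 801 in the 7 AI lines, so the gap between AN3 and AI3 was small beside the spread within either kind. Of all 13185 genes tested, 3 separated the lines without overlap, the others being Lrsam1, an E3 ubiquitin ligase, and Lsm12. The pattern was noticed in these data and has no test of its own. In the fits by grade Rps19 had log2 differences of 0.41 ± 0.11 (SE) for AN F vs AI F and 0.35 ± 0.11 for AN P vs AI P.

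Rplp0 and Rplp1 differed in where they separated the lines. Rplp0 separated AN F from AI F, and Rplp1 separated AN P from AI P, at 2771, 2528, 2781, 2626 and 2623 FPKM in AN P and 1936, 2311 and 2228 in AI P. Rplp1 was 2605, 2528, 2609 and 2222 FPKM in AN F and 2618, 2274, 2263 and 1760.0 in AI F, where the groups overlapped.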
